A study of Mus musculus with 2 samples.

Results

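The miR-34 and miR-449 genes are 6 miRNA genes, Mir34a, Mir34b, Mir34c, Mir449a, Mir449b and Mir449c, of the 2202 miRNA genes counted in the left cerebral cortex of 2 mice. They were found by name: each Ensembl identifier in the count tables was matched to its GENCODE M21 symbol, and all 6 had a match. Both libraries came from 2-month-old female mice of the strain B6CASTF1/J, the offspring of a cross between a C57BL laboratory mouse and a CAST mouse of wild descent. There was 1 library per animal and 1 group, with no treatment or control, so levels and the difference between animals could be measured but no condition could be compared. The labels number the females separately but list a common donor identifier for both. They are called animal 1 and animal 2 here, by their biological replicate numbers.

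Mature miRNAs are short RNAs cut from a hairpin, and they pair with messenger RNAs mainly through the seed, bases 2 to 8 from their 5′ end. The miR-34 and miR-449 genes are grouped because their 5p arms carry a common seed and can repress overlapping sets of messenger RNAs. Mir34a is induced by the tumour suppressor p53 and acts in cell cycle arrest and in neuronal differentiation and ageing. Mir34b and Mir34c lie side by side and, with the Mir449 genes, are known for their role in multiciliated cells, which in the brain include the ependymal cells that line the ventricles. Mouse work has shown that the genes of the family stand in for each other in making motile cilia.

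The common seed is shown first, because it is what defines the family. Mature sequences come from RefSeq on GRCm38.p6, whose table held at least 1 mature arm for 5 of the 6 genes. The capitals mark the seed.
mmu-miR-34a-5p: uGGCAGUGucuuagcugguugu
mmu-miR-34b-5p: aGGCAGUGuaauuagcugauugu
mmu-miR-449a-5p: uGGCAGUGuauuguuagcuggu
mmu-miR-449c-5p: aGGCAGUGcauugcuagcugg

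These 4 arms had the same 7 bases in the seed, and of the table's 1738 mature sequences no other carried it. The other 5p arms, miR-34c-5p and miR-449b, are named only. Outside the seed they diverged. The arms of Mir34a and Mir449a shared their first 9 bases and were 6 single-base edits apart (a substitution, insertion or deletion counts as 1). The arms of Mir34a and Mir34b were 4 edits apart, as were those of Mir449a and Mir449c.

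The 3p arms did not follow the family. Those of Mir34b and Mir34c are shown because they carried a common seed of their own, which no other mature sequence in the table had.
mmu-miR-34b-3p: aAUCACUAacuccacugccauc
mmu-miR-34c-3p: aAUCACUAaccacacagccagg

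These 2 arms were 5 edits apart. The 3p arms of Mir34a, Mir449a and Mir449c each had a seed found on no other mature sequence. The deposited tables count whole hairpin genes, so the levels below do not separate the arms. Each level is a count per library scaled to 1000000 (CPM). It was not divided by length, since a read spans a mature miRNA of similar length in every gene. How well each sequence was captured in library preparation was not measured, so level differences between genes carry that unknown.

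Reads of the members could in principle be set aside as mapping to several places, an entry that held 37.4% of reads in animal 1 and 25.5% in animal 2. Of the mapped reads it held 48.9% in animal 1 and 48.2% in animal 2. Among 1005 RefSeq hairpins, which included those of 5 members, the longest stretch a member shared with any other hairpin was 14 bases, between Mir449a and Mir679. For the hairpins of Mir34a, Mir34b, Mir34c and Mir449c it was 11 bases. No hairpin shared 18 or more bases with any of these 5 members. Mir449b had no hairpin in the table and was not compared. The comparison covered hairpins and not the rest of the genome.

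The libraries held 4415759 counts at miRNA genes in animal 1 and 2279562 in animal 2, or 32.6% and 22.5% of their reads. Unmapped reads made up 23.4% in animal 1 and 47.1% in animal 2. A gene was called detected at 2 CPM in both animals, which 415 of the 2202 genes reached (18.8%). A count of 0 allows up to 3 counts, or 0.679 CPM in animal 1 and 1.32 CPM in animal 2. Such limits, and all intervals given here, describe counting error alone. Reads that carry no molecular identifier may be copies of the same molecule, so even that error may be larger than the intervals show. Neuronal miRNAs were checked against the labelled tissue, and had a summed level of 56566 CPM in animal 1, against 103801 CPM in animal 2, over 12 listed genes. Of these, 9 were detected and none was at 0 in both. Mir132 made up 24389 CPM of the sum in animal 1 and 79576 CPM in animal 2, and so sets its direction; Mir128-1, the next, had 16164 and 9645 CPM, and Mir138-1 had 4329 and 5025 CPM. The genes not detected were Mir124a-1, Mir124a-2 and Mir124a-3, hairpins of the best known neuronal miRNA. They had 11, 6 and 4 counts in animal 1, against 2, 4 and 0 in animal 2. A read that fits more than a single hairpin equally well can be set aside and counted at none of them. Whether this happened for the Mir124a hairpins was not tested, so their low counts do not show that this miRNA was scarce in the cortex.

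Most of the family's counts in adult cortex were at Mir34a, 94.8% in animal 1 and 85.9% in animal 2. Of the 6 members, 4 were detected and 2 had no count in either animal. Over all miRNA genes, 18.8% were detected and 1456 of 2202 had 0 counts in both. The order of levels was the same in both animals: Mir34a, then Mir34c, Mir449a and Mir34b.

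Mir34a (ENSMUSG00000065493.1) lies alone at chr4:150068454-150068555 on the plus strand of mm10, with no annotated protein-coding host. The last 17 bases of its hairpin overlap the start of Gm37795, an unclassified transcript on the same strand. It had 5799 counts in animal 1 and 5546 in animal 2, which is 1313 CPM and 2433 CPM in the same order. The level averaged 1873 ± 792 CPM (SD, n = 2), and Mir34a ranked 81st of 2202 genes in animal 1 and 61st in animal 2. Of the 415 detected genes, 68 had a higher mean. Animal 2 was the higher animal, and the exact Poisson 95% intervals, 1280 to 1347 CPM in animal 1 and 2369 to 2498 CPM in animal 2, did not overlap.

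Mir34c (ENSMUSG00000065587.1) and Mir34b (ENSMUSG00000065492.1) lie on the minus strand at chr9:51103034-51103110 and chr9:51103562-51103645, with 451 bases between the hairpins. Both lie opposite Btg4, an anti-proliferation gene of oocytes, inside intron 1 of 1 of its annotated transcripts. The nearest protein-coding gene on their own strand, 4833427G06Rik, lies 955 bases from Mir34c. Mir34c had 213 counts (48.2 CPM) in animal 1 and 838 counts (368 CPM) in animal 2, with a mean of 208 ± 226 CPM (SD, n = 2). Its SD was larger than its mean, so no single level describes both animals. Mir34b had 24 counts (5.44 CPM) in animal 1 and 27 counts (11.8 CPM) in animal 2, with a mean of 8.64 ± 4.53 CPM. It was the lowest of the detected members, with 331 of the 415 detected genes above it.

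The Mir449 genes lie on the plus strand in intron 2 of Cdc20b, a gene transcribed in multiciliated cells. The nearest protein-coding gene before them on that strand is Mcidas, a regulator of the multiciliated cell fate, 35588 bases before Mir449c. Mir449c (ENSMUSG00000076146.1) is at chr13:113035983-113036091, Mir449b (ENSMUSG00000078027.1) at chr13:113037419-113037498 and Mir449a (ENSMUSG00000065575.1) at chr13:113037534-113037624. Mir449a had 80 counts (18.1 CPM) in animal 1 and 43 counts (18.9 CPM) in animal 2, with a mean of 18.5 ± 0.528 CPM (SD, n = 2). The intervals, 14.4 to 22.5 CPM in animal 1 and 13.7 to 25.4 CPM in animal 2, overlapped. Mir449b, 35 bases before Mir449a, and Mir449c, 1442 bases before it, had 0 counts in both animals. With its own count taken without error, Mir449a stood 26.7-fold above the floor of 3 counts in animal 1 and 14.3-fold above it in animal 2. In 360 same-strand pairs of miRNA genes within 10 kb, only 1 gene was detected. The partner had 0 counts in both animals in 296 of them (82.2%). Both genes were detected in a further 385 such pairs. Over all 2202 miRNA genes, 1456 had 0 counts in both animals.

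**Figure D1:**
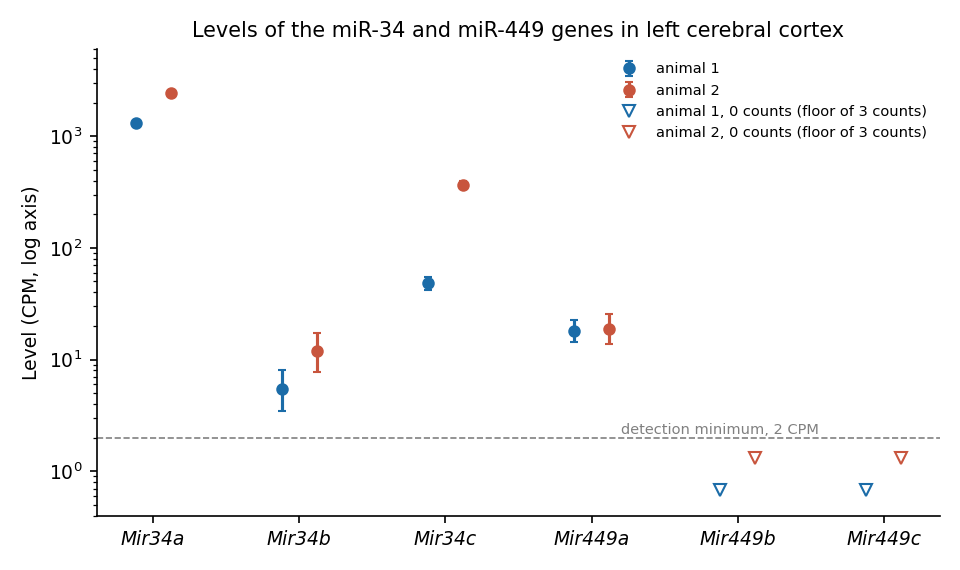
Level of each family member in CPM (log axis) in animal 1 and animal 2, with exact Poisson 95% intervals; open triangles mark 0 counts, drawn at the floor of 3 counts, and the dashed line is the detection minimum of 2 CPM. Mir34a lies highest in both animals, Mir34c is far apart between them at 48.2 and 368 CPM, and Mir449b and Mir449c have 0 counts.

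**Figure D2:**
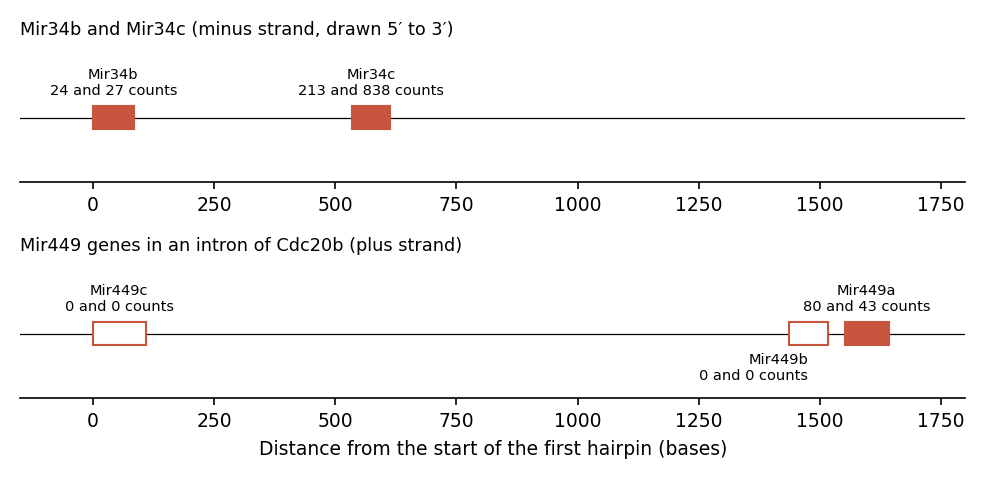
Hairpins of Mir34b and Mir34c and of the Mir449 genes, drawn to scale in bases from the start of the first hairpin of each cluster, with counts in animal 1 and animal 2; filled boxes had counts and open boxes had none. Mir449a is filled beside the open box of Mir449b, 35 bases away.

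Some neighbours in the order of levels were close. Mir34a exceeded Mir34c 27.2-fold in animal 1 (exact 95% interval 23.7 to 31.4) and 6.62-fold in animal 2 (6.15 to 7.13). Mir34c exceeded Mir449a 2.66-fold in animal 1 (2.05 to 3.49) and 19.5-fold in animal 2 (14.3 to 27.1). The gap between their means was smaller than the SD of Mir34c over the animals. Mir449a exceeded Mir34b 3.33-fold in animal 1 (2.09 to 5.50) and 1.59-fold in animal 2, where the interval of 0.962 to 2.68 included equal levels.

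Summed over the members, both arms of each hairpin included, the family stood at 1385 CPM (animal 1) and 2831 CPM (animal 2), with a mean of 2108 ± 1023 CPM (SD, n = 2). That is 0.139% of counts at miRNA genes in animal 1 and 0.283% in animal 2. The Mir34 genes made up 1367 CPM of it in animal 1 and 2812 CPM in animal 2. The Mir449 genes gave 18.1 CPM and 18.9 CPM, all of it Mir449a.

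The make-up of this sum differed between the animals in the shares of Mir34a, Mir34c and Mir449a, whose intervals did not overlap. Shares of a sum depend on each other, since a higher share of any member lowers the rest. In animal 1, Mir34a held 94.8% of the family's counts, with an exact Clopper-Pearson 95% interval of 94.2 to 95.4%, against 85.9% (85.1 to 86.8%) in animal 2. Mir34c held 3.48% in animal 1 (3.04 to 3.97%) and 13.0% in animal 2 (12.2 to 13.8%). Mir449a held 1.31% in animal 1 (1.04 to 1.63%) and 0.666% in animal 2 (0.483 to 0.896%), while its level was 18.1 CPM and 18.9 CPM. Mir34b held 0.392% and 0.418%, with overlapping intervals. With Mir34c left out, which was decided once its values were known, Mir34a held 98.5 ± 0.364% (SD, n = 2).

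**Figure D3:**
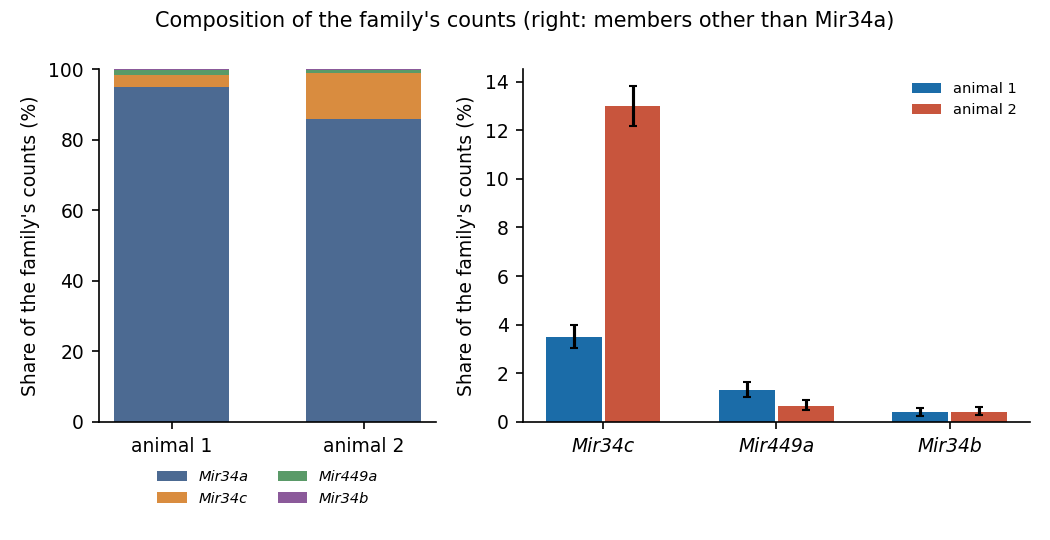
Left, share of the family's counts held by each member in animal 1 and animal 2, in percent; right, the same shares for the members other than Mir34a, with exact Clopper-Pearson 95% intervals. Mir34a fills 94.8% and 85.9% of the bars, and Mir34c takes 3.48% and 13.0%.

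Between the animals, the Mir34 genes were higher in animal 2, and Mir449a did not differ beyond counting error. For each gene the log2 ratio of animal 1 over animal 2 was set against the exact Clopper-Pearson 95% interval that counting allows. A gene whose interval left out 0 was called outside counting error. This compares 2 libraries, so the animal and its library preparation cannot be told apart. Nor, in bulk tissue, can fewer cells of a type and less RNA per cell. Of the 4 detected members, 3 were outside counting error, against 56.6% of the 415 detected genes. All 3 were higher in animal 2, which held for 29.6% of detected genes.

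Mir34c had the largest difference of the family. Its log2 ratio was -2.93 (interval -3.15 to -2.71), a level 7.62-fold higher in animal 2. Of the 415 detected genes, 2 had a log2 ratio that low or lower, Mir34c among them. Mir34b had a log2 ratio of -1.12 (-1.98 to -0.28), and Mir34a one of -0.89 (-0.94 to -0.84). With Mir34c, Mir34b was 1 of 2 members higher in animal 2 by more than 1 in log2, against 7.47% of detected genes. Mir449a, at -0.06 (-0.61 to 0.51), was inside counting error. The median log2 ratio was -1.01 over the 4 detected members and -0.0029 over all 415 detected genes.

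**Figure D4:**
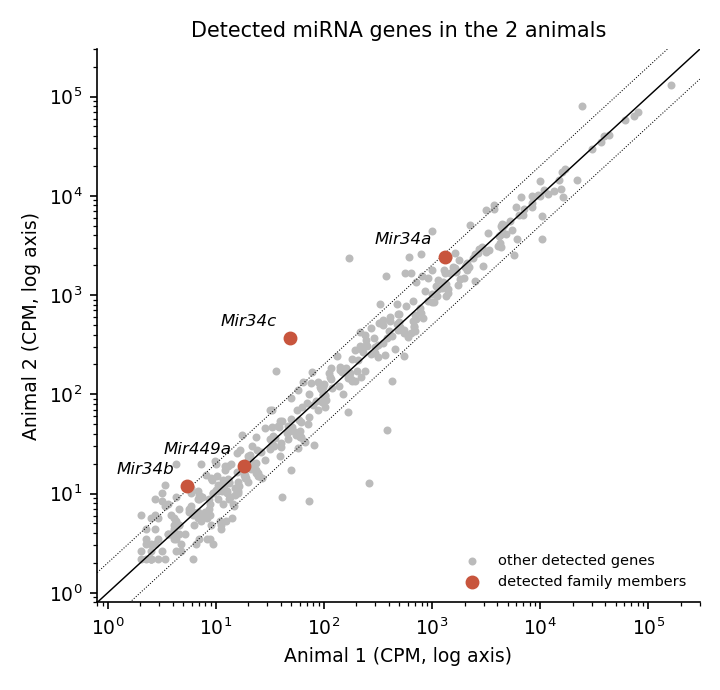
Level of each detected miRNA gene in animal 1 (x axis) and animal 2 (y axis), in CPM on log axes; the solid line is equality, the dotted lines a factor of 2, grey points the other detected genes and red points the 4 detected members. Mir34c, at 48.2 and 368 CPM, lies farthest from equality among the members, and Mir449a lies on it.

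These ratios are relative to reads counted at miRNA genes. Per 1000000 of all reads, unmapped reads included, the ratios of all detected genes moved by 0.54 in log2. On that scale the log2 ratio was -2.39 for Mir34c, -0.35 for Mir34a and 0.48 (-0.07 to 1.05) for Mir449a. Mir34b, at -0.59 (-1.44 to 0.26), was then inside counting error.

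Mir34b and Mir34c differed from each other although they are neighbours on a strand and are known to be cut from a common primary transcript. Mir34c exceeded Mir34b 8.88-fold in animal 1 (exact 95% interval 5.81 to 14.2) and 31.0-fold in animal 2 (21.2 to 47.4), and the intervals did not overlap. Their log2 ratios between animals therefore lay 1.81 apart. Among 385 same-strand pairs of detected miRNA genes within 10 kb, the median of this difference was 0.49 and the upper quartile 0.82. It reached 1.81 or more in 7 pairs (1.82%), this pair included. Mir34b had only 24 counts in animal 1 and 27 in animal 2, and no interval was computed for the difference. The place of Mir34b and Mir34c among the pairs is therefore uncertain. The 2 ratios' intervals did not overlap in 62.1% of the pairs, so an unequal difference between neighbours was itself common. With pairs within 2 kb, the share reaching that of Mir34b and Mir34c was 4.96%. Pairs share genes and lie mostly in a few large clusters, so they are not replicates.

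The distance in level between Mir34b and Mir34c was nearer the middle of these pairs. It was 3.15 in log2 in animal 1 and 4.96 in animal 2, with a mean of 4.05, against a median of 3.23 over the 385 pairs, and 135 pairs (35.1%) were at least as far apart.

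**Figure D5:**
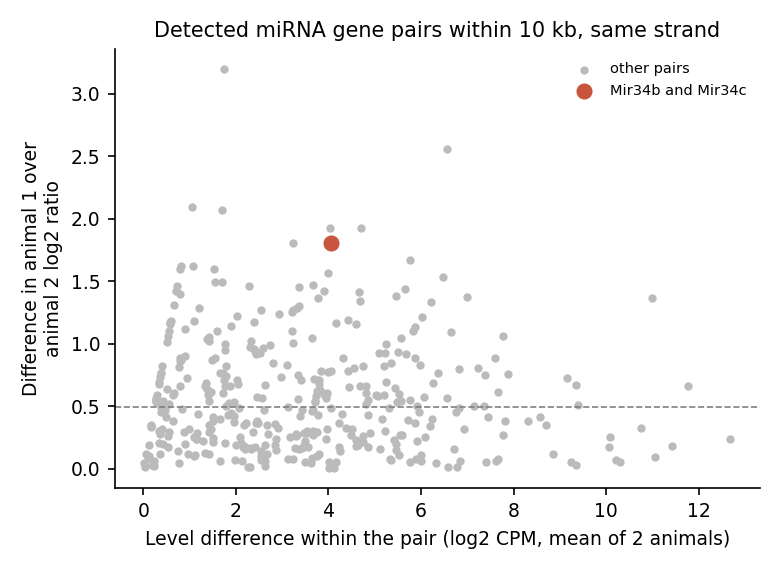
For each of 385 same-strand pairs of detected miRNA genes within 10 kb, the difference in level within the pair (log2 CPM, mean of the 2 animals, x axis) and the difference between their animal 1 over animal 2 log2 ratios (y axis); the dashed line is the median of the y values. The pair of Mir34b and Mir34c, in red, lies at 4.05 and 1.81, above most pairs on the y axis.

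Other miRNAs moved between the animals too, and their values are set beside the family here. Of all 415 detected genes, 123 (29.6%) were outside counting error and higher in animal 2, and 112 were higher in animal 1. The counts of each list below are to be read against these. Of 6 miRNAs listed for reactive glia, all detected, 5 were outside counting error and higher in animal 2 and none was higher in animal 1. Their summed level was 5708 CPM for animal 1 and 17063 CPM for animal 2, and their median log2 ratio was -1.58. Mir221, Mir222 and Mir31 were the most abundant. Among them Mir31, with 171 CPM in animal 1 and 2361 in animal 2, had the lowest log2 ratio, -3.78, and it was the other detected gene as low as Mir34c. This list was drawn up with the high levels of several of its genes in animal 2 known, so its direction is no independent evidence.

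Epithelial miRNAs went both ways. Of 7 miRNAs listed for choroid plexus and epithelium, 6 were detected, 3 higher in animal 1, 1 higher in animal 2, and 2 lay inside counting error. None was at 0 in both animals. Their summed level was 657 CPM in animal 1 and 730 CPM in animal 2. Mir204, known from the choroid plexus, stood at 480 CPM (animal 1) and 652 CPM (animal 2). Mir200b, which epithelia express, had 72.2 and 8.33 CPM, and Mir429 of the same cluster had 66.8 and 32.9 CPM. Mir449a, known from multiciliated cells, did not differ beyond counting error. The part of other cell types in the Mir34c difference was not tested.

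Other miRNAs known to be induced by p53 were mixed. Of 9 listed genes besides the members, 7 were detected and Mir194-1 and Mir215 had 0 counts in both animals. Of the 7, 4 were higher in animal 2, 1 was higher in animal 1 and the other 2 lay within counting error. Their summed level was 6210 CPM for animal 1 and 8766 CPM for animal 2, and their median log2 ratio was -0.16. Mir107 had 798 CPM in animal 1, against 2613 CPM in animal 2, Mir143 had 4590 and 5118 CPM, and Mir15a had 273 and 469 CPM.

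Blood and immune miRNAs went in both directions. Of 5 miRNAs listed for microglia and leukocytes, 3 were higher in animal 2, none was higher in animal 1 and the other 2 lay within counting error. They summed to 1795 CPM for animal 1 and 2343 CPM for animal 2, led by Mir150, Mir146 and Mir142; Mir146 and Mir155 are also 2 of the reactive glia genes above, so these lists are not separate. Of 3 erythroid miRNAs, 2 were higher in animal 1 and 1 was inside counting error, and Mir451a, Mir486 and Mir144 together came to 459 CPM for animal 1 and 91.2 CPM for animal 2. Of the neuronal list, 4 genes were higher in each animal.

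The detected genes nearest to each member in level were found by the distance between their log2 CPM values in the 2 animals, a likeness over 2 libraries only. Mir187 lay nearest to Mir34a, at 0.10, with 1405 CPM (animal 1) and 2431 CPM (animal 2), followed by Mir98 and Mir1249. Mir34c had no close match. Mir26a-1, the nearest, lay at 1.18 with 36.0 CPM (animal 1) and 172 CPM (animal 2), followed by Mir377 and Mir218-2. Mir6990 lay nearest to Mir34b at 0.13, followed by Mir6940 and Mir3085, and Mir7j nearest to Mir449a at 0.09, followed by Mir7066 and Mir33.

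Counting without regard to strand gave the same counts as counting on the read strand for 5 of the 6 members. The exception was Mir34b, with 25 counts in animal 1 and 32 in animal 2 in the unstranded column, since 1 and 5 reads lay on the opposite strand. No other miRNA gene overlaps a member on either strand.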

How the data were processed

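The authors deposited raw counts of reads per miRNA gene for each library, with no normalization; build mm10 and GENCODE M21 come from the metadata deposited with the files, and per the labels the libraries held RNA below 30 nucleotides. As to aligner and read filters: not given in the sources used here. The tables have no header. The count column used is the strand-specific column with the larger sum in both libraries. The first 4 entries of each table name no gene and were left out of totals; their shares are given with the results.

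All 2202 identifiers matched the annotation. CPM was the count over the sum of gene counts. Log2 ratios used no pseudocount. Intervals are exact at 95%, from scipy 1.17.1 in Python 3.11.15. The ratio and its interval were tested on simulated data with counting error alone, the error that the interval assumes. Spread between animals or library preparations was not simulated. With 1 group there was no test and no p-value. Sequences and hairpin comparisons used RefSeq tables on GRCm38.p6.

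Alternatives were edgeR 4.0.16 TMM scaling, DESeq2 1.42.0 size factors, other totals, the unstranded counts, pseudocounts, detection minimums, pair distances and leaving out either library. Genes named are the members, the 3 most abundant of each list, the 3 nearest to each detected member and overlapping genes. Also named are the neighbouring Mcidas and 4833427G06Rik, and Mir679, the closest hairpin. Mir155, Mir194-1, Mir215 and the Mir124a genes were named after their values were seen. The neuron, choroid plexus and epithelium, p53, microglia and leukocyte, erythroid and reactive glia lists, like the members, were chosen with earlier results of these data known.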

Additional observations from a re-analysis of the deposited data

Results flagged for a closer look

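Mir34b had 1 read on its opposite strand in animal 1 and 5 in animal 2, a signal outside the counts used. In animal 2 it was above the floor of 3 counts. In animal 1 these were 4.00% of the reads at Mir34b, with an exact Clopper-Pearson interval at 95% of 0.101 to 20.4%, against 15.6% (5.28 to 32.8%) in animal 2. No miRNA gene lies opposite Mir34b, and Btg4 runs along that strand. Of the 2202 genes, 53 with no miRNA gene opposite them had such reads, and 12 of these had more than 3 in a library.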

How the results depend on the processing

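Of 35 alternative values of the members' and the family's log2 ratios, 34 kept the main reading. With a pseudocount this meant a value within the main interval. For the rest it meant staying inside or outside counting error, whatever the size of the ratio. The exception was Mir34b per 1000000 of all reads, at -0.59; on that scale Mir449a changed sign, inside counting error. Mean levels moved by more than their SD per 1000000 of all reads for Mir34a (488), Mir34b (2.22), Mir449a (5.08) and the family total (544), because the total is larger by construction. Mir449a, whose SD is small, also moved to 21.7 CPM without the most abundant gene in the total and to 19.8 CPM with unstranded counts. The share of Mir34a moved to 98.5% without Mir34c, since a share rises when another member leaves the sum. The share of pairs as far apart as Mir34b and Mir34c moved to 4.96% at 2 kb, where the pairs numbered 121 and not 385. The number of members detected was 4 under every alternative run except 10 CPM in both animals, which left 3. Leaving out either library gave the other animal's value, and no ratio could then be formed. Mir34b rests on 24 and 27 counts, so its ratio is the least certain, and the depth cannot show Mir449b or Mir449c below the floor of 3 counts.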
